A study of Mus musculus with 16 samples.

Results

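RNA sequencing of the mouse melanoma line B16F10 was used here to compare its derivatives B16F10-TDMa and B16F10-TDM in culture, both carrying a control guide. The comparison took the 2 TDMa sgScramble culture libraries and the 2 TDM sgScramble culture libraries, 4 of the 16 samples of the series, and the 12474 genes that the deposited tables of both lines listed. The labels describe every one of the 4 samples as melanoma cells transduced with a scramble guide RNA, a control meant to match no gene. The title of the series names demethylation and activation of NLRC5 as its subject, and the editing components that each line carries are not in the labels. All were kept in DMEM with fetal bovine serum. Sepasol was used for extraction, and total RNA went into libraries of a directional NEBNext kit. The remaining culture samples, 2 per line, carried a guide RNA targeting Nlrc5 and serve below as a second set of TDMa and TDM libraries. The labels do not spell out TDM or TDMa, do not say how TDMa was obtained, and do not say whether either line is 1 clone or whether replicates were separate cultures. The p-values therefore measure the spread between these samples, which may be technical.

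The values of the lines came from separately normalised tables, so line and table are confounded: a difference of the lines and a difference in how the tables were made cannot be told apart. The 4 columns were put on a common scale over the shared genes. Depth was similar in all of them, from 13316993 to 15935149 reads over the listed genes. Of the shared genes, 11855 reached a mean normalised count of 10 and were tested with limma on log2(normalised count + 1), with Benjamini-Hochberg adjustment over all of them. A gene is called when its adjusted p is below 0.05. Every difference below is TDMa minus TDM on that log2(value + 1) scale, on which folds of genes with few reads come out too small.

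B16F10 cells are a melanoma of the C57BL/6 mouse and keep parts of the pigment cell programme, which the factor Mitf drives together with Sox10. Such cells are known to move between pigmented and invasive states that differ in matrix, adhesion and growth factor genes. MHC class I, the peptide-presenting complex read by cytotoxic T cells, is made of a heavy chain and B2m, and its genes are controlled by the transactivator NLRC5, by interferons and by NF-kB. Because these are bulk samples, fewer cells of a type and less RNA per cell cannot be told apart. All 8 melanocyte lineage markers (Mitf, Sox10, Pmel, Tyr, Tyrp1, Dct, Mlana and Gpnmb) were listed in both lines. Their summed normalised counts were 140450 and 143212 in the TDM libraries and 215003 and 211048 in the TDMa libraries. No marker of T cells, NK cells, dendritic cells, neutrophils, keratinocytes or erythroid cells was listed in both tables. Of the 7 macrophage markers, Lyz2 and Cd68 were listed, with sums of 395 and 428 in TDM and 779 and 835 in TDMa. Of the 8 fibroblast markers, Col1a1, Col1a2, Pdgfra and Pdgfrb were listed, with sums of 511 and 520.0 in TDM and 379 and 377 in TDMa.

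The lines differed widely. Of the 11855 genes tested, 6069 (51.2%) were called, 3028 (25.5%) higher in TDMa and 3041 (25.7%) lower. Changes of more than 2-fold were less balanced: 774 called genes were higher by that much and 414 lower. Among the 9494 genes with a mean of at least 100, the median absolute difference between replicates was 0.07 on the log2 scale in each line, and between the lines it ran from 0.21 to 0.22 over the 4 library pairs. The share of genes more than 2-fold apart was 0.19% and 0.084% between replicates and 6.44% to 6.63% between lines. On the deposited scales, without rescaling, the median gene moved by -0.10, and 34.6% of the 6575 called genes were higher in TDMa in place of 49.9%, so the split of small changes rests on the scaling. All directions below are relative to the median gene.

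**Figure D1:**
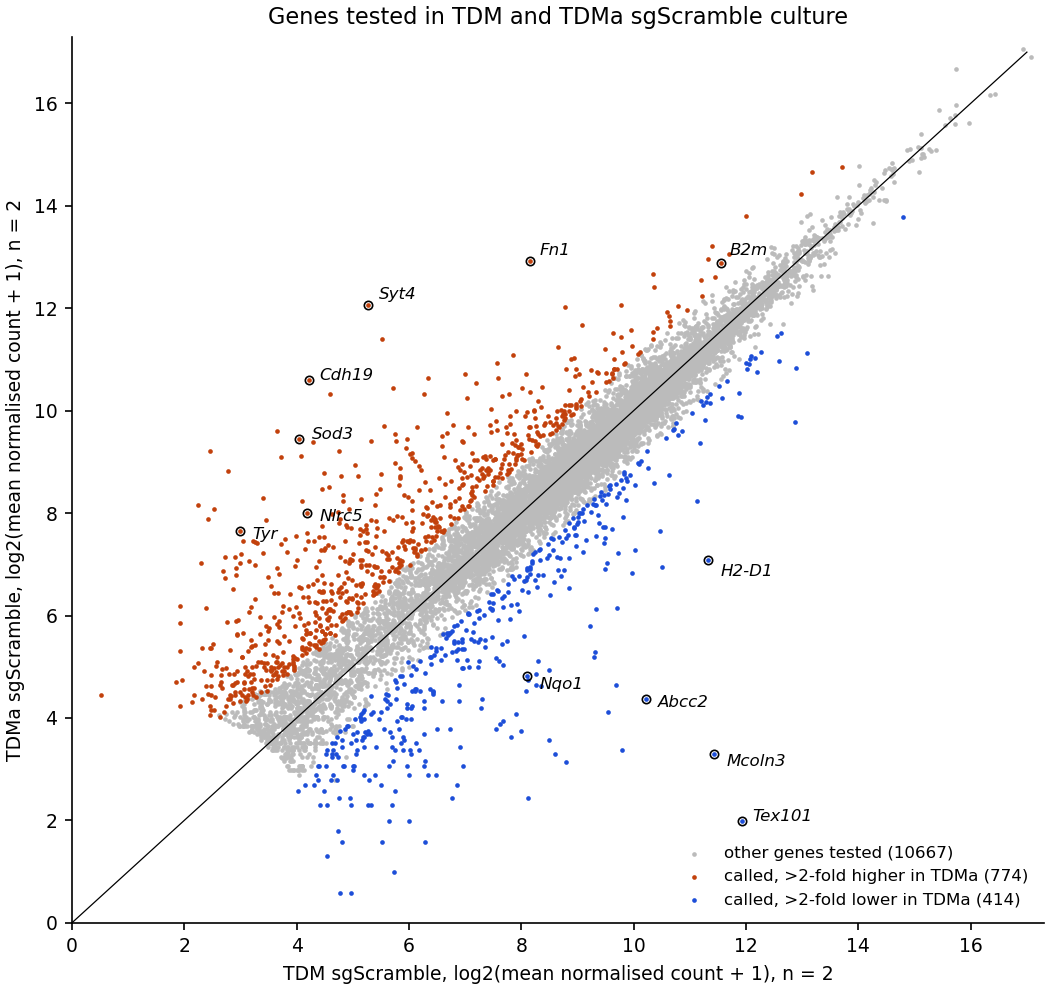
Mean normalised counts of the 11855 genes tested, as log2(mean + 1), in TDM (horizontal axis) and TDMa (vertical axis) sgScramble culture, with 2 libraries in each mean. Orange points are the 774 called genes more than 2-fold higher in TDMa and blue points the 414 lower, and the line marks equal values; circled genes are described in the text.

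The largest rise of a named gene, predicted genes left out, was in Syt4 (ENSMUSG00000024261), which encodes synaptotagmin-4, a protein of secretory vesicles. It had normalised counts of 37.3 and 38.0 in TDM and 4225 and 4297 in TDMa, a difference of 6.79 on the log2 scale (SE 0.09, adjusted p = 4.27e-27). The replicates of each line lay almost on top of each other, and the lines were far apart. Cdh19, a cadherin of the neural crest lineage, went from 18.7 and 16.4 to 1635 and 1451, a rise of 6.38. Abcg2, a drug efflux transporter, went from 11.9 and 11.3 to 761 and 786, a rise of 5.94. Tagln2, an actin-binding protein, went from 44.1 and 46.2 to 2638 and 2728, a rise of 5.86. In all of these the TDM libraries were at low but detected levels. The 15 largest rises among genes with a mean of at least 50 in a line ranged from 4.93 to 6.79. They also held the cyclic GMP-dependent kinase Prkg2 (5.76), the secreted matrix protein Thbs1 (5.56), the extracellular superoxide dismutase Sod3 (5.41) and the lipid phosphatase Inpp4b (5.40). Further members were the RNA-binding protein Igf2bp3 (5.20), the retinaldehyde dehydrogenase Aldh1a3 (5.12), the actin-linked adaptor Afap1l2 (5.59), Vopp1 (6.09), Pwwp3b (5.91) and the phosphatase inhibitor Ppp1r14c (5.04). Shank1, a synaptic scaffold protein, rested on unequal TDM libraries, at 0 and 11.3 against 116 and 96.2 in TDMa, and lost its call without an intensity trend in the variance (adjusted p = 0.0665).

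The furthest below was Tex101 (ENSMUSG00000062773), a surface protein of germ cells. It fell from 3854 and 3919 in TDM to 1.98 and 3.93 in TDMa, which rest on 8366 and 6 reads, a difference of -9.99 on the log2 scale (SE 0.20, adjusted p = 1.19e-23). Mcoln3, an endolysosomal cation channel, fell from 2741 and 2749.8 to 8.90 and 8.84 (-8.12). Abcc2, an organic anion efflux pump, fell from 1208 and 1170.3 to 19.8 and 19.6 (-5.84). These genes were well expressed in both TDM libraries and close to the floor in both TDMa libraries. The 15 largest falls ranged from -4.22 to -9.99. They included Nxf3, of an RNA export factor family (-5.80), the peroxiredoxin-like Prxl2a (-5.68), the peptidase Naalad2 (-5.46), the nuclear envelope protein Syne4 (-5.41) and Etl4 (-5.05). Gstp2, a glutathione transferase with a near-identical copy, fell by 5.06, and how reads of such copies were divided is not given in the sources used here. Kbtbd6 (-4.74), the kinase Sgk2 (-4.71), the NF-kB scaffold Card14 (-4.31) and Apc2 were further members. Osbp2, an oxysterol-binding protein, had 107 and 109 in TDM and 0 and 8.84 in TDMa, and lost its call without an intensity trend (adjusted p = 0.0511). The last member, the class I heavy chain gene H2-D1, is described below.

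**Figure D2:**
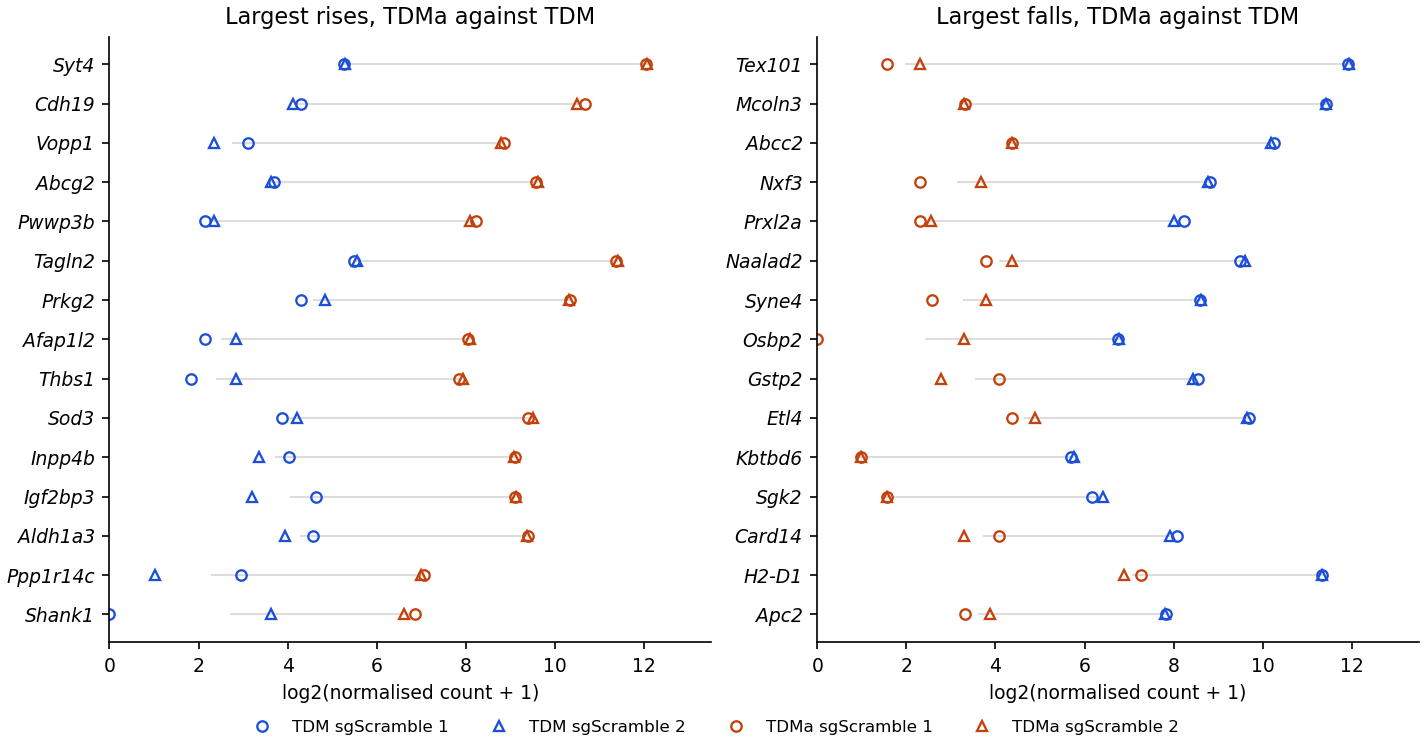
The 15 largest rises (left) and the 15 largest falls (right), with log2(normalised count + 1) on the horizontal axis and 1 gene per row. Each symbol is 1 library, blue for TDM and orange for TDMa, and the grey line joins the group means; the lines do not overlap for any of the 30 genes, and only Shank1 and Osbp2 have a library at 0.

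The second set of TDMa and TDM libraries, which carried the Nlrc5 guide, shares no sample with the first but shares the tables and lines. There, 6268 of the same 11855 genes (52.9%) were called, and 3995 were called with the same direction in both sets, 65.8% of the sgScramble calls and 63.7% of the sgNlrc5 calls. In 283 genes the called directions were opposite. Of the 1188 genes called with more than 2-fold change in the sgScramble set, 1100 had the same sign with the other guide, 951 were called that way and 22 were called the other way. The difference of the line contrast between the guides was itself called for 2584 genes (21.8%), and for 415 of the 1188. Syt4 (6.05), Tex101 (-8.86) and Mcoln3 (-9.23) differed in the same direction with the Nlrc5 guide, and the difference between guides was called for Syt4 and Tex101. Prkg2 rose by 2.09 there against 5.76 with sgScramble (adjusted p of the difference 5.86e-09), and Prxl2a differed by -1.37 against -5.68 (adjusted p 5.34e-11).

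Class I genes went in opposite directions within the sgScramble comparison. Nlrc5 (ENSMUSG00000074151), the transactivator of class I genes, had 22 and 12.3 in the TDM libraries and 262 and 249 in the TDMa libraries, higher by 3.87 on the log2 scale (SE 0.25, adjusted p = 1.02e-12). B2m, the shared light chain, went from 3104 and 2915 to 8034 and 7022, higher by 1.32 (SE 0.05). H2-D1, a heavy chain gene, went from 2585 and 2560.1 to 153 and 117, a difference of -4.25 on the log2 scale (SE 0.09, adjusted p = 1.09e-22). Both TDMa libraries were thus above both TDM libraries for Nlrc5 and B2m and far below them for H2-D1. Of the 6 heavy chain and light chain genes tested, 1 was called higher and 3 lower. The other 14 of the 20 members of this list, among them the heavy chain gene H2-K1, were in neither table used here. H2-D1 therefore does not stand for all heavy chain genes. The other called members were low: H2-M3, a heavy chain that presents formylated peptides, had 46.6 and 30.8 in TDM and 20.8 and 2.95 in TDMa (-2.07), and H2-T10 had 17 and 20.5 in TDM and 7.91 and 2.95 in TDMa (-1.73). Each lost its call when TDMa replicate 2 was left out (adjusted p up to 0.175 and 0.119 over all alternatives), and H2-T10 also without TDM replicate 2. H2-T22 (1053 and 917 in TDM, 1033 and 985 in TDMa) and H2-T24 (33.9 and 24.6 in TDM, 40.5 and 48.1 in TDMa) did not pass the test. Heavy chain genes are close copies of each other, so a share of their reads may be assigned to the wrong member. Ciita, the class II transactivator, was not compared here.

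H2-D1 did not show this drop with the Nlrc5 guide: it had 3272 and 3457 in TDM and 3937 and 3942 in TDMa, a difference of 0.23. The line contrast of H2-D1 differed between the guides by 4.48 on the log2 scale (adjusted p = 1.13e-19). The 2 TDMa sgScramble libraries thus had the lowest H2-D1 levels of the 8 culture libraries. Nlrc5 itself, the target of that guide, had 55.4 and 75.9 in TDM and 3229.7 and 3219.6 in TDMa with it, a line difference of 5.61, and B2m differed by 2.44. Both differences were larger than with sgScramble (adjusted p of the difference 3.32e-05 for Nlrc5 and 8.76e-12 for B2m).

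Of the 15 genes tested in the antigen processing list, 5 were called higher and 5 lower, with a median of -0.08. This list includes Nlrc5 itself, described above, among the members called higher. On the deposited scale 2 were called higher and 8 lower, and without TDMa replicate 1 these were 3 and 4. The peptide transporter subunit Tap2 fell from 125 and 137 to 69.2 and 59.9 (-1.02), and the immunoproteasome subunit Psmb10 fell from 482 and 491 to 382 and 299 (-0.53). The chaperone Calr rose by 0.23 and the aminopeptidase Lnpep fell by 0.31. The calls of Psmb10 and Lnpep were lost without an intensity trend (adjusted p = 0.0629 and 0.0636). Tap1, the partner of Tap2, had 329 and 284 in TDM and 278 and 267 in TDMa, and the immunoproteasome subunit Psmb9 had 41.5 and 31.8 in TDM and 45.5 and 30.4 in TDMa. Neither passed the test, and the lines overlapped for Psmb9. With the Nlrc5 guide both were higher in TDMa, Tap1 by 1.60 and Psmb9 by 2.78, and the difference between guides was called for each (adjusted p = 6.49e-10 and 2.54e-06). Of the 5 class II genes tested, H2-DMa, a peptide-loading chaperone chain, was called lower (-1.21) and none higher, but 1 was higher without TDM replicate 2 or TDMa replicate 1. Rfx5, Rfxap and Rfxank, the subunits of the RFX complex that binds class I and class II promoters, had differences between -0.11 and 0.07 and did not pass the test.

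Interferon-stimulated genes were split between the directions. Of 43 antiviral effectors tested, 15 were called higher and 17 lower, with a median of -0.10 against -0.00081 over all genes tested. Which direction held more members changed when 1 library was left out, with 7 higher and 16 lower without TDMa replicate 1 and 13 higher and 11 lower without TDMa replicate 2. Oas1g and Oas1a, close copies that make the activator of RNase L, fell from 162 and 148 to 26.7 and 7.86 (-3.31) and from 567 and 442 to 207 and 118 (-1.68). The ubiquitin ligases Dtx3l (-1.07) and Rnf213 (-0.94) fell too. In the other direction, the antiviral factor Samd9l rose from 326 and 320.0 to 765 and 688 (1.16), the RNA-binding Ifit3 from 171 and 177 to 333 and 356 (0.98) and Trim30a from 35.6 and 22.6 to 112 and 98.2 (1.85). Each of these genes was separated between the lines, with some falling and others rising in the same libraries. Isg15, a ubiquitin-like modifier, had 408 and 389.8 in TDM and 367 and 249 in TDMa (-0.40) and lost its call without TDMa replicate 2.

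The 13 interferon gamma-type genes tested included 4 called higher and 7 lower. The immunity-related GTPases Irgm1 and Irgm2 fell, Irgm1 from 2936 and 2701 to 1924 and 1906 (-0.56) and Irgm2 from 501 and 469.8 to 277 and 228 (-0.95). The guanylate-binding proteins Gbp2 and Gbp3, of a related family of defence GTPases, rose, Gbp2 from 37.3 and 35.9 to 141 and 110.0 (1.74) and Gbp3 from 22.9 and 17.4 to 163 and 102 (2.63). The chemokine Ccl5 rose from 28.8 and 40 to 331 and 289 (3.15), and the chemokine Cxcl10 from 293 and 289 to 393 and 433 (0.50). Irf1, an interferon-induced transcription factor, had 403 and 378 in TDM and 405 and 407 in TDMa and did not pass the test. Of the 20 receptors, kinases and factors tested, 6 were called higher and 5 lower, which became 5 and 7 on the deposited scale and 6 and 3 without TDM replicate 1 or TDMa replicate 2. Stat3, a cytokine-activated factor, rose by 0.73, the receptor chain Ifngr2 by 0.41 and the kinase Jak1 by 0.23, and the phosphatase Ptpn2, which dampens JAK signalling, fell by 0.41.

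Among 16 nucleic acid sensors and adaptors tested, 2 were called higher and 7 lower, or 4 lower without TDMa replicate 2. Sting1, the adaptor of cytosolic DNA sensing, fell from 1397 and 1466 to 775 and 888 (-0.79), and Mavs, the adaptor of cytosolic RNA sensing, from 1046 and 962 to 571 and 609.9 (-0.77). The endosomal RNA receptor Tlr3 rose from 204 and 197 to 509 and 483 (1.30). Zc3hav1 fell by 0.22, as did the RNA editor Adar (-0.25). Both calls were lost without an intensity trend, and that of Adar also without TDM replicate 1. In the NF-kB list, 8 of 18 tested members were called higher and 3 lower, with a median of 0.29, and 5 were higher without TDMa replicate 1. Nfkbiz, an inducible IkB-family regulator, rose from 50.9 and 91.3 to 327 and 374 (2.34), Relb, the factor of the noncanonical pathway, from 64.4 and 67.7 to 187 and 160.1 (1.38), and the inhibitor Nfkbie by 1.21. Nfkb1, the precursor of the p50 subunit, fell by 0.40, and the growth factor Csf1 rose by 0.33. Among 9 ligands of NK and T cells tested, 4 were called higher and 2 lower, against 2 and 2 on the deposited scale, 4 and 1 without TDM replicate 1, 5 and 1 without TDM replicate 2 and 4 and 0 without TDMa replicate 2. They included the phagocytosis-blocking ligand Cd47 (0.91), Cd276 (1.48), Nectin2 (0.25, not called on the deposited scale) and the low NKG2D ligand Ulbp1 (-1.30), which lost its call without TDM replicate 1 or TDMa replicate 2.

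In the second set, 3128 of all 11855 genes tested were called lower in TDMa and 3140 higher. The antiviral effectors were mostly lower there: 34 of 43 were called lower and 2 higher, with a median of -1.4. The TDM libraries of that set were unequal for these genes: 42 of the 43 were higher in replicate 2 than in replicate 1, with a median ratio of 1.66, against 0.967 between the TDMa replicates. Without that replicate 33 were called lower and 2 higher, with a median of -1.17. Over all genes tested, the line contrast differed between the guides in 2584 (21.8%), and in 1303 of those it was more negative with the Nlrc5 guide. Among the antiviral effectors it differed in 31, and in each of those 31 it was more negative with that guide. Leaving out TDM replicate 2 of that set gave 27 such genes, 26 of them more negative. The interferon gamma-type genes gave 11 lower and 1 higher of 13 there, or 9 and 1 without that replicate, with 11 called differences, all more negative. Gbp2 (-0.82), Gbp3 (-1.48), Ifit3 (-1.22), Cxcl10 (-2.04) and Trim30a (-3.42) were all called in the direction opposite to that with sgScramble. The calls of Gbp2 and Gbp3 in the second set were lost without TDM replicate 2 (adjusted p = 0.109 and 0.0953), and that of Gbp2 also when any other library of the set was left out.

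**Figure D3:**
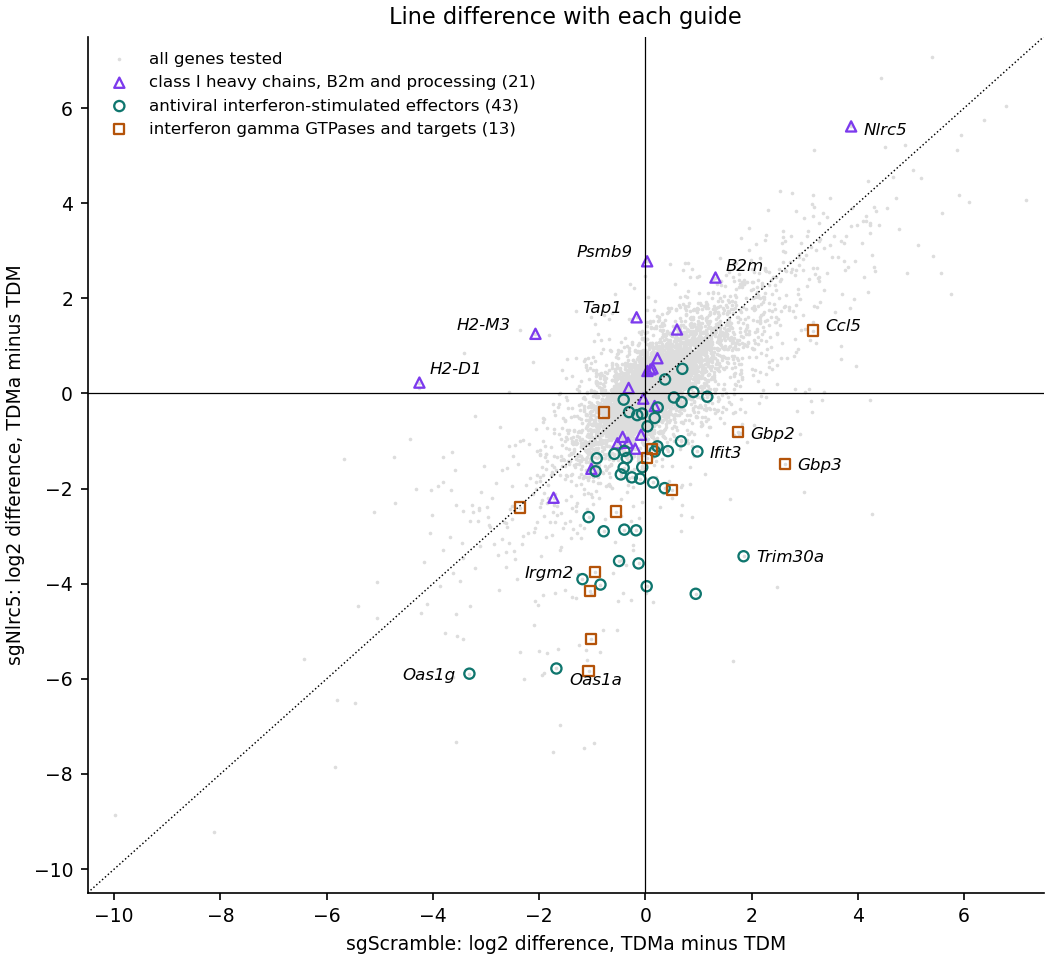
Log2 difference between TDMa and TDM for each of the 11855 genes tested, with sgScramble on the horizontal axis and with the Nlrc5 guide, in other libraries, on the vertical axis; the dotted line marks equal differences. H2-D1 lies at -4.25 and 0.23, and 34 of the 43 antiviral effectors (circles) were called lower in TDMa with the Nlrc5 guide against 17 with sgScramble.

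The promoters of genes that moved apart were read for the interferon-stimulated response element, the site bound by interferon regulatory factors. It was searched as GAAA followed, after any 2 bases, by GAAA, on both strands of the 250 bases before the start given by RefSeq (GRCm38.p6), and 2.42% of the 9045 promoters of tested genes held it. Among the effector and interferon gamma-type genes with a promoter in the table, 10 of 20 that were called lower held it, 8 of 15 that were called higher, and 1 of 8 that were not called. These promoters stood for 20 of 24, 15 of 19 and 8 of 13 genes, which is under 80% for the last 2 sets, so the shares describe the promoters found and are void as a check of the sets. The 150 bases before the start are shown for a heavy chain gene that fell, the light chain gene that rose, and an interferon-stimulated gene of each direction, 5′ to 3′ on the gene's strand, with matches in capitals. The match stood between 139 and 130 bases before the start in B2m, 20 and 5 in Oas1a, where it occurs as an overlapping pair, and 45 and 30 in Gbp3, where an overlapping pair lies on the other strand. H2-D1 had no match to these letters in this window. Its first printed bases come near the pattern on the other strand without matching it. Only exact letters were searched, so a looser form of the element in H2-D1 would be missed, and its absence cannot be read from this.
H2-D1 (chr17:35262944-35263093, plus strand): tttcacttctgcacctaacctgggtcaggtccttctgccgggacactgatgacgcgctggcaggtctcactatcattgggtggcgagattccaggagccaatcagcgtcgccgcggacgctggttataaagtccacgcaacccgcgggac
B2m (chr2:122147537-122147686, plus strand): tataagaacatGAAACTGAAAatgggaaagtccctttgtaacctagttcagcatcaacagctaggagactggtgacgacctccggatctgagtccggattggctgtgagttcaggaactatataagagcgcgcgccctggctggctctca
Oas1a (chr5:120907526-120907675, minus strand): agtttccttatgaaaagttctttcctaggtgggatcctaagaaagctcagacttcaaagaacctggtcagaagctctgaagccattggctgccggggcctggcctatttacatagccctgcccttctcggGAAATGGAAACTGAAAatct
Gbp3 (chr3:142559894-142560043, plus strand): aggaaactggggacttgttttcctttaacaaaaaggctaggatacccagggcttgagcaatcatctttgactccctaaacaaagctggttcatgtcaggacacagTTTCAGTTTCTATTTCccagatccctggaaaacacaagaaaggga

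The pigment cell genes were expressed in both lines and were more often higher in TDMa. Of 29 members tested, 16 were called higher and 9 lower, with a median of 0.18. The enzymes of melanin synthesis were higher in TDMa. Tyr, the tyrosinase that starts the pathway, went from 6.78 and 7.18 in TDM to 197 and 203 in TDMa, a difference of 4.65 on the log2 scale (SE 0.29, adjusted p = 4.62e-13). Dct, the dopachrome tautomerase, went from 54449.6 and 54788 to 104574 and 102952 (0.93), and Tyrp1 from 2724 and 2673 to 5051 and 4759 (0.86). Tyr was thus low in both TDM libraries while Dct and Tyrp1 were well expressed in all 4. Rab38, a GTPase that delivers these enzymes to melanosomes, went from 398 and 402 to 2409.9 and 2422 (2.59), and the exchanger Slc24a4 rose by 1.18. The lineage factors moved less, with Mitf from 3853 and 3848 to 4569 and 4407 (0.22) and Sox10 from 5344 and 5313 to 7839 and 8021 (0.57). Pax3, another lineage factor, fell from 3296 and 3330.4 to 1691 and 1864 (-0.90). Met, the receptor for hepatocyte growth factor, fell from 3645 and 3811 to 942 and 951 (-1.98), and the melanosome protein Mlana fell by 0.49. In the second set Tyr differed by 4.55, Rab38 by 3.42 and Pax3 by -0.82, and the difference between guides was not called for Tyr or Pax3.

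Genes of the invasive melanoma state were more often higher in TDMa as well: 15 of 23 tested members were called higher and 6 lower, with a median of 0.32. Of the called members, 7 were more than 2-fold higher and 2 more than 2-fold lower. Of all 48 members, 20 were in neither table used here, 2 in the TDM table only and 3 in the TDMa table only. The members named below all rose, and the 6 called lower are not named. Fn1, fibronectin, went from 276 and 288 in TDM to 7595 and 7914 in TDMa, a difference of 4.77 on the log2 scale (SE 0.05, adjusted p = 5.23e-29). Mmp2, a gelatinase, went from 39.0 and 43.1 to 285 and 282 (2.76). Sparc, a collagen-binding protein, went from 13117 and 13553 to 26844 and 28173 (1.04). All 3 were separated between the lines by many times the gap between replicates. The repressor Zeb2 rose by 1.09 and the adhesion molecule L1cam by 1.54. The pigment and invasive lists, usually described as opposed programmes, each held more members called higher than lower.

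Matrix genes showed the same direction, with 16 of 27 tested members called higher, 7 lower and a median of 0.58, with 4 lower when TDMa replicate 1 was left out. A further 7 of the 49 matrix genes were listed in the TDMa table and not in the TDM table used here, and none the other way round. Hspg2, the basement membrane proteoglycan perlecan, went from 1302 and 1293 to 6534 and 6429.7 (2.32). The laminin chain Lamb1 went from 21.2 and 17.4 to 119 and 125 (2.60), and fibulin Fbln1 from 454 and 494 to 2025 and 2079 (2.11). These are parts of basement membranes and their surroundings. Matn2 rose by 2.48, the laminin chain Lama4 by 1.16, and the collagen IV chain Col4a2 by 0.67. The low collagen VI gene Col6a1 had 5.94 and 10.3 in TDM and 60.3 and 81.5 in TDMa (3.01), and 0.04 with the Nlrc5 guide (adjusted p of the difference 0.0084). Col1a1, the fibrillar collagen of connective tissue, fell from 269 and 276 to 114 and 129 (-1.16).

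Of 22 integrins, cadherins and junction genes tested, 10 were called higher and 7 lower. Gja1, the gap junction protein connexin 43, went from 17 and 34.9 to 588 and 603 (4.56), whereas Gjb2, connexin 26, fell from 4158 and 4355 to 1899 and 1942 (-1.15). Itga6, a laminin receptor subunit, went from 2690.5 and 2669.8 to 9372 and 9547 (1.82), and Itga1, a collagen receptor subunit, from 5.94 and 8.21 to 129 and 162 (4.19). Itga4, a subunit of receptors for fibronectin and VCAM-1, fell from 4525 and 4526 to 2893 and 2845 (-0.66). Members of the connexin and integrin families thus moved in both directions. Mcam rose by 1.16, and Ncam1 went from 15.3 and 22.6 to 184 and 166 (3.17). In the second set Gja1 differed by 3.91 and Itga1 by 4.46, with no called difference between guides. Gjb2 differed by -0.07 there, and its difference between guides was called (adjusted p = 7.93e-12).

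**Figure D4:**
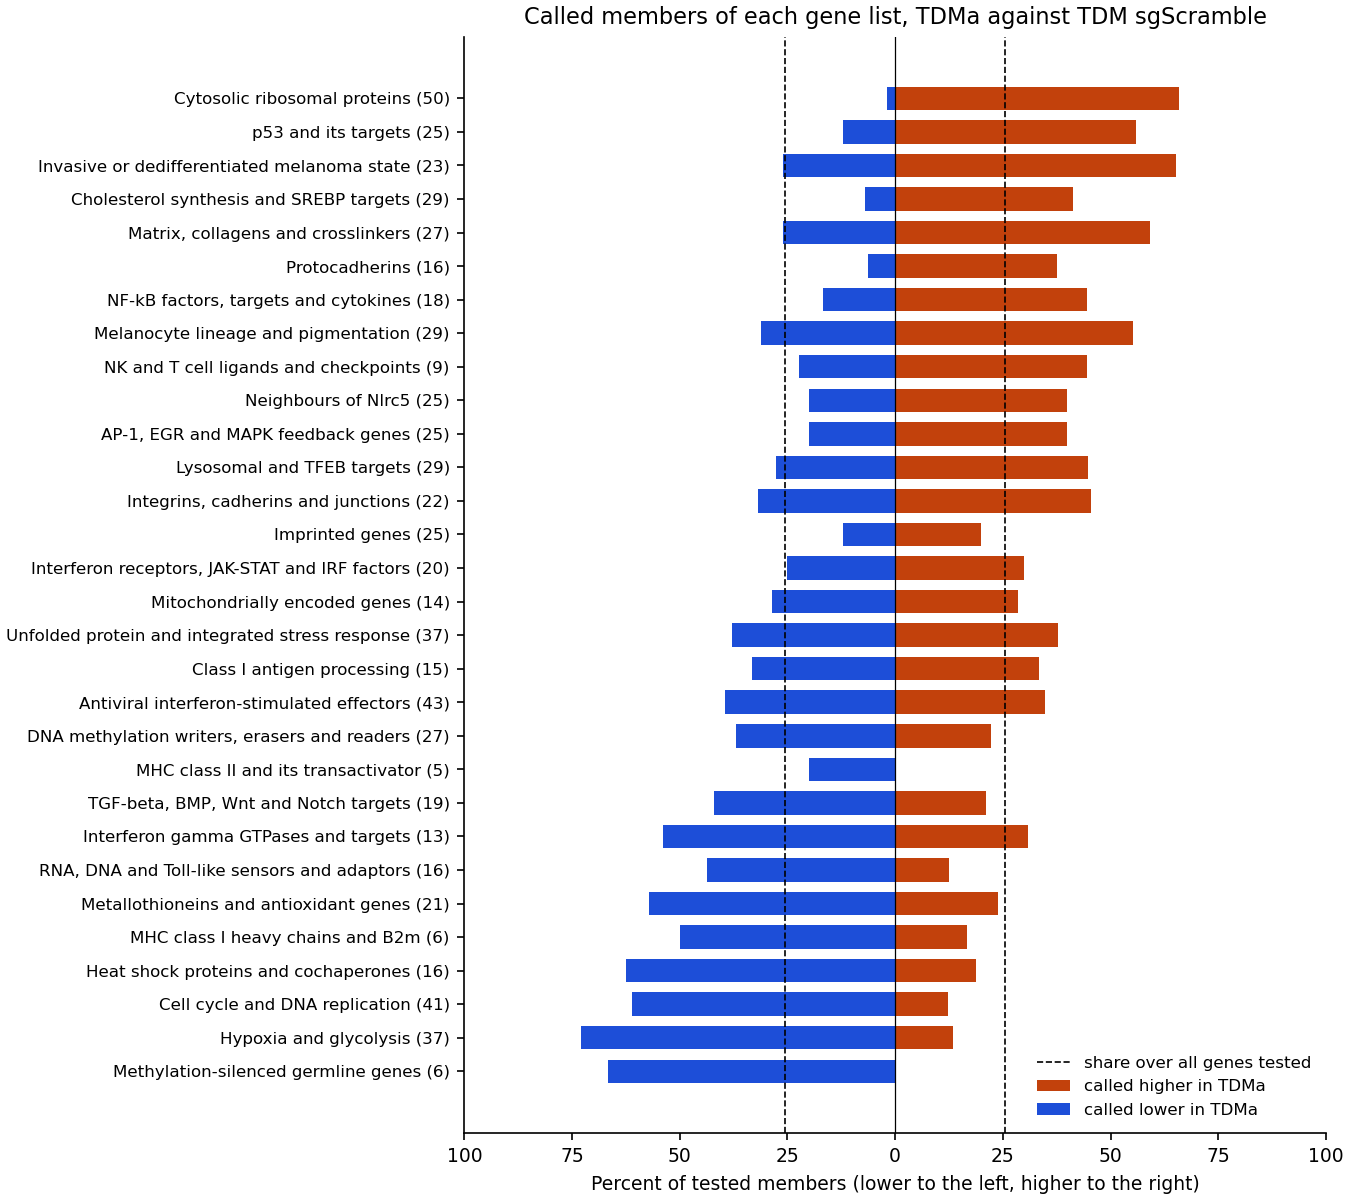
Percent of the tested members of each gene list called higher (orange, to the right) or lower (blue, to the left) in TDMa, with the number tested in brackets; dashed lines give the shares over all 11855 genes, 25.5% and 25.7%. Hypoxia and glycolysis genes had 27 of 37 members called lower, and cytosolic ribosomal protein genes 33 of 50 called higher.

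Genes of hypoxia and glycolysis were lower in TDMa with sgScramble. Of 37 tested, 27 were called lower and 5 higher, with a median of -0.33, and without an intensity trend 17 were lower and 3 higher. Ero1a, an oxidase of the endoplasmic reticulum induced by hypoxia, fell from 7112 and 8044 to 1799 and 1845, a difference of -2.05 on the log2 scale (SE 0.05, adjusted p = 1.51e-22). Pfkp, the platelet-type phosphofructokinase, fell from 4028 and 4309.9 to 1825 and 1750.1 (-1.22), whereas the muscle-type enzyme Pfkm rose from 962 and 1012 to 1801 and 1953 (0.93). Tpi1, a glycolytic enzyme, fell by 0.40, and hexokinase Hk1 rose by 0.55. The direction of the list was not the same in the other set. With the Nlrc5 guide 21 of the 37 were called higher and 6 lower (median 0.23), and 13 were called in opposite directions in the sets. Over all 11855 genes tested, 3140 were called higher and 3128 lower with that guide. The difference between guides was called for 28 of 37, against 21.8% of all genes tested. Bnip3, a mitophagy receptor, went from 545 and 631 to 307 and 292 with sgScramble (-0.97) and from 441 and 328 to 934 and 707 with the Nlrc5 guide (1.09). The growth factor Vegfa differed by -0.52 and 0.74 and the glucose transporter Slc2a1 by -0.64 and 0.08. Ndrg1, another hypoxia-induced gene, rose from 583 and 762 to 1176 and 1202 (0.83). The vasodilator peptide gene Adm was lower with both guides, at 44.1 and 45.1 against 0.989 and 2.95 with sgScramble, which rest on 96 and 4 reads, and differed by -2.56 with the Nlrc5 guide. The sets differ in guide and in culture, which cannot be told apart.

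Antioxidant genes were also lower in TDMa: 12 of 21 tested members were called lower and 5 higher. Nqo1, a quinone reductase and standard target of the factor NRF2, fell from 256 and 289 to 21.8 and 32.4, a difference of -3.31 on the log2 scale (SE 0.22, adjusted p = 9.86e-13). Gclm, the regulatory subunit of the first enzyme of glutathione synthesis, fell from 2501 and 2422 to 868 and 931 (-1.45), and the cystine transporter Slc7a11 from 264 and 218 to 74.2 and 72.7 (-1.70). Srxn1, which repairs peroxiredoxins, and glutathione reductase Gsr each fell by 0.92. Nfe2l2, which encodes NRF2 itself, fell from 2916 and 2931 to 2094 and 2085 (-0.48). The falling genes named here were chosen by smallest p or after their values were seen, so they do not stand for the glutathione system as a whole. The extracellular Sod3 (5.41) went the other way, and no other rise is named here. With the Nlrc5 guide the differences were -4.48 for Nqo1, -1.42 for Gclm, -0.83 for Gsr and -0.53 for Nfe2l2, and 11 of the 17 called members were called with the same direction there, none with the opposite one.

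Of 37 stress genes tested, from the unfolded protein response and the integrated response around Atf4, 14 were called higher and 14 lower, against 10 and 19 on the deposited scale. Gdf15, a stress-induced cytokine, went from 192 and 248 to 1255 and 1300.3 (2.54), and the lipoprotein receptor Vldlr from 58.5 and 71.8 to 553 and 521 (3.03). The amino acid transporter chains Slc7a5 (-0.73) and Slc3a2 (-0.68) fell, and asparagine synthetase Asns fell from 2449 and 2504 to 1609 and 1531 (-0.66). Atf4, the factor that drives amino acid genes, had 3996 and 4153 in TDM and 4091 and 4001 in TDMa and did not pass the test. Of 16 heat shock genes tested, 10 were called lower and 3 higher. Hspb1, a small heat shock protein, fell from 1533 and 1517 to 741 and 677 (-1.11). The cochaperones Dnajb1 (-0.44) and Dnaja1 (-0.27) and the chaperone Hsp90ab1 (-0.18) fell too, and Hspa4l rose by 0.89. The call of Hsp90ab1 was lost without an intensity trend (adjusted p = 0.0716).

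Cell cycle and replication genes were mostly slightly lower in TDMa, with 25 of 41 called lower, 5 higher and a median of -0.16. Without an intensity trend 10 were lower and 3 higher. Rrm2, the inducible subunit of ribonucleotide reductase, fell from 11121 and 11341 to 6319 and 6291 (-0.83), and the helicase subunit Mcm7 from 3893 and 4072 to 2789 and 2876 (-0.49). The D-type cyclins, which start the cell cycle with CDK4 and CDK6, went different ways. Ccnd2 rose from 1255 and 1365 to 5480.5 and 5462 (2.06) and Ccnd1 from 2424 and 2504 to 4299 and 4504 (0.84), while Ccnd3 fell from 9175 and 9086 to 6289 and 6384 (-0.53). The proliferation marker Mki67 fell by 0.12 and lost its call without TDMa replicate 1. The second set gave 24 lower and 6 higher. In the p53 list, 14 of 25 tested members were called higher and 3 lower, with a median of 0.20, or 8 higher and 2 lower without an intensity trend. Cdkn1a, the CDK inhibitor p21, rose from 3245 and 3378 to 5059 and 5310.2 (0.65), the kinase Plk2 from 369.7 and 424 to 1032 and 1009, Btg2 by 1.13 and Ccng1 by 0.42, and Psrc1 fell by 0.80. Trp53 itself had 2941 and 3120.1 in TDM and 3182 and 3271 in TDMa and did not pass the test, but did without TDM replicate 2 (adjusted p = 0.0259).

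Signalling targets were mixed. Of 19 TGF-beta, BMP, Wnt and Notch genes tested, 4 were called higher and 8 lower. The BMP-induced inhibitors of differentiation fell together, Id1 from 909.8 and 915 to 436 and 459 (-1.03), Id3 from 3692 and 3856 to 2146 and 1987 (-0.87) and Id2 as well (-0.51). The receptor Tgfbr2 fell by 1.09 and the signal factor Smad3 rose by 0.73. Of 25 AP-1, EGR and MAPK feedback genes, 10 were called higher and 5 lower, a majority that turned with the scaling (8 and 11 on the deposited scale, 8 and 9 with quantile normalisation). Spry1, an inhibitor of receptor kinase signalling, rose from 84.8 and 64.6 to 262 and 244 (1.76), Fos from 46.6 and 55.4 to 122 and 177 (1.51), the phosphatase Dusp6 by 0.46, Jund by 0.66 and Phlda1 by 0.46. In the cholesterol list 12 of 29 members were called higher and 2 lower, against 6 and 6 on the deposited scale. The 12 and 2 make up 48.3% of the list, against 51.2% called of all genes tested. Members that rose include the sterol-regulated factor Srebf2 (0.96), the desaturase Scd1 (0.95) and the synthesis enzymes Hsd17b7 (0.81) and Msmo1 (0.44). Scd1 was lower with the Nlrc5 guide (-0.48). Of 29 lysosomal genes, 13 were called higher and 8 lower, but 7 and 12 on the deposited scale, among them the protease Ctsd (0.49), the lipase Lipa (0.62), Cd68 (1.01), the sialidase Neu1 (-0.74) and the autophagy receptor Sqstm1 (-0.33).

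Cytosolic ribosomal protein genes were higher in TDMa by small amounts: 33 of 50 were called higher and 1 lower, with a median of 0.14. That median is close to the shift between scalings, and on the deposited scale 18 were called higher and 7 lower (median 0.04). Without an intensity trend 9 were called higher and none lower. Rpl8 stood apart with 16415 and 16656 in TDM and 27864 and 28083 in TDMa (0.76). Rps12 (0.37), Rps20 (0.36), Rpl28 (0.33) and Rps2 (0.27) followed. Of 14 mitochondrially encoded genes, 4 were called in each direction, but 1 higher and 6 lower on the deposited scale, 1 and 2 without TDMa replicate 1, 2 and 2 without TDM replicate 1, and 1 and 1 without an intensity trend. They were the ribosomal RNA mt-Rnr1 (-1.03) and the oxidase subunits mt-Co1, mt-Co2 and mt-Co3 among the lower, and mt-Cytb (0.24), mt-Nd2, mt-Nd4 (0.11) and mt-Nd5 (0.11) among the higher; the calls of mt-Nd4 and mt-Nd5 were lost on the deposited scale and without TDMa replicate 1, that of mt-Nd4 also without TDM replicate 1.

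Genes that DNA methylation is known to keep silent outside the germ line were lower in TDMa for most of those that could be tested. Of 65 such genes, 48 were in neither table used here and 6 could be tested, of which 4 were called lower and none higher. Over all genes tested, 25.7% were called lower and 25.5% higher, and 6 genes are too few to compare with these shares. Tex101 belongs to this list. Rhox5, an X-linked homeobox gene of the testis and ovary, fell from 8543 and 8739 to 2223 and 2266 (-1.94), and Xlr3c from 764 and 781 to 428 and 423 (-0.86). Piwil2, which binds piRNAs, fell by 0.39, and Xlr3a had 244 and 262 in TDM and 206 and 216 in TDMa and did not pass the test. A further 8 members (Tex14, Tex19.1, Xlr3b, Xlr4b, Magea5, Magea8, Tuba3b and Ctag2l1) were listed in the TDM table and not in the TDMa table used here, and Trap1a and Lin28b the other way round. In the second set Rhox5 differed by -5.91 and Xlr3c by -5.44, both with a called difference between guides. The Xlr3 genes are near-identical copies. Among 27 DNA methylation and chromatin genes, the maintenance methyltransferase Dnmt1 rose from 2684 and 2717 to 4471 and 4524 (0.74), while its partner Uhrf1 fell from 7685 and 7731 to 4724 and 4995 (-0.67). In all, 6 were called higher and 10 lower. The demethylases Tet1 and Tet2 differed by 0.46 and -0.70, Ezh2 by -0.32, Trim28 by -0.24, Gadd45a by 1.21 and the cytidine deaminase Apobec1 by 1.79.

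Imprinted genes, expressed from 1 parental copy, were mostly not called: 5 of 25 tested were higher and 3 lower, and 3 higher and 6 lower on the deposited scale. That is 32% called, against 51.2% of all genes tested. Without TDMa replicate 2, 3 were called in each direction. Plagl1, a zinc finger factor, fell from 9377 and 9427 to 5119 and 5429 (-0.83), as did Slc22a18 (-1.30) and the receptor Igf2r (-0.28), and Trappc9 rose by 1.02 and Mcts2 by 0.63. H19, Mkrn3, Cdkn1c and Grb10 were listed in the TDM table only. Of 16 protocadherins tested, a family that includes neighbouring copies with similar sequences, 6 were called higher and 1 lower. The called share was 43.75%, against 51.2% of all genes tested. Pcdhb11 had 28.0 and 17.4 in TDM and 157 and 173 in TDMa (2.84), and Pcdhb7 (1.91), Pcdhb5 (1.28) and Pcdhb16 (1.25) rose too, while Pcdh7 fell by 0.98. Of 25 genes near Nlrc5 on its chromosome, 10 were called higher and 5 lower, against 9 and 9 on the deposited scale and 2 or 3 lower when any 1 library was left out. Mmp15, a membrane-bound metalloproteinase, went from 144 and 119 to 838 and 793 (2.63) and the kinesin Kifc3 from 324 and 298 to 751 and 776 (1.29). Gnao1 (0.84), Mt1 (0.61) and Adgrg1 (0.55) followed, all below the rise of Nlrc5 itself.

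Differences also ran in blocks along chromosomes. The 9416 tested genes with a mean of at least 100 and a RefSeq symbol were put in the order of RefSeq GRCm38.p6 and divided into 226 windows of about 40 neighbours. The window median stayed within 0.2 of 0 in 208 of them. Chromosome 15 held the highest ones: in the 4 windows from Ptp4a3 to Scaf11 the medians were 0.56 to 0.62, and 92.9% to 93.0% of the genes were called higher, against 26.4% over all these genes. The chromosome median was 0.36. On chromosome 14 the median was -0.24, 7 of its 8 windows lay below -0.2, and 56.3% of its genes were called lower, against 29.2% over all. Chromosome 12 had a median of -0.18, with 49.2% called lower. On chromosome 10, the window from Tcf3 to Ankrd24 had a median of -0.75 with 36 of 43 genes called lower and none higher, and the window from Traf3ip2 to Hsf2 a median of -0.37. Neighbouring windows of chromosome 10 returned to within 0.1 of 0.

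The windows named above on chromosomes 15 and 10, and chromosome 14 as a whole, also stood apart in the libraries with the Nlrc5 guide. The 4 high windows of chromosome 15 had medians of 0.51 to 0.62 there, chromosome 14 had a median of -0.24, and the window from Tcf3 to Ankrd24 -0.86. Chromosome 12 was nearer to 0 (-0.08), and chromosome 11 was at -0.03 with sgScramble and -0.26 with the Nlrc5 guide. On chromosome 12, the window from Fancm to Syne2 was at -0.20 with sgScramble and -0.008 with the Nlrc5 guide. The window from Psmc1 to Dync1h1 was at -0.21 and -0.08. The last windows of chromosome 3, from Camk2d to Wls, were at -0.03 and 0.02 with sgScramble and at -0.35 and -0.41 with the Nlrc5 guide. Gene copy number was not measured, and its part in these blocks was not tested. Rpl8 lies on chromosome 15 by that annotation, and its rise of 0.76 is near the medians of the windows there. The rise of the lineage factor Sox10 (0.57) is also no larger than such window medians reach. Differences of named genes were not adjusted for the block in which a gene lies.

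**Figure D5:**
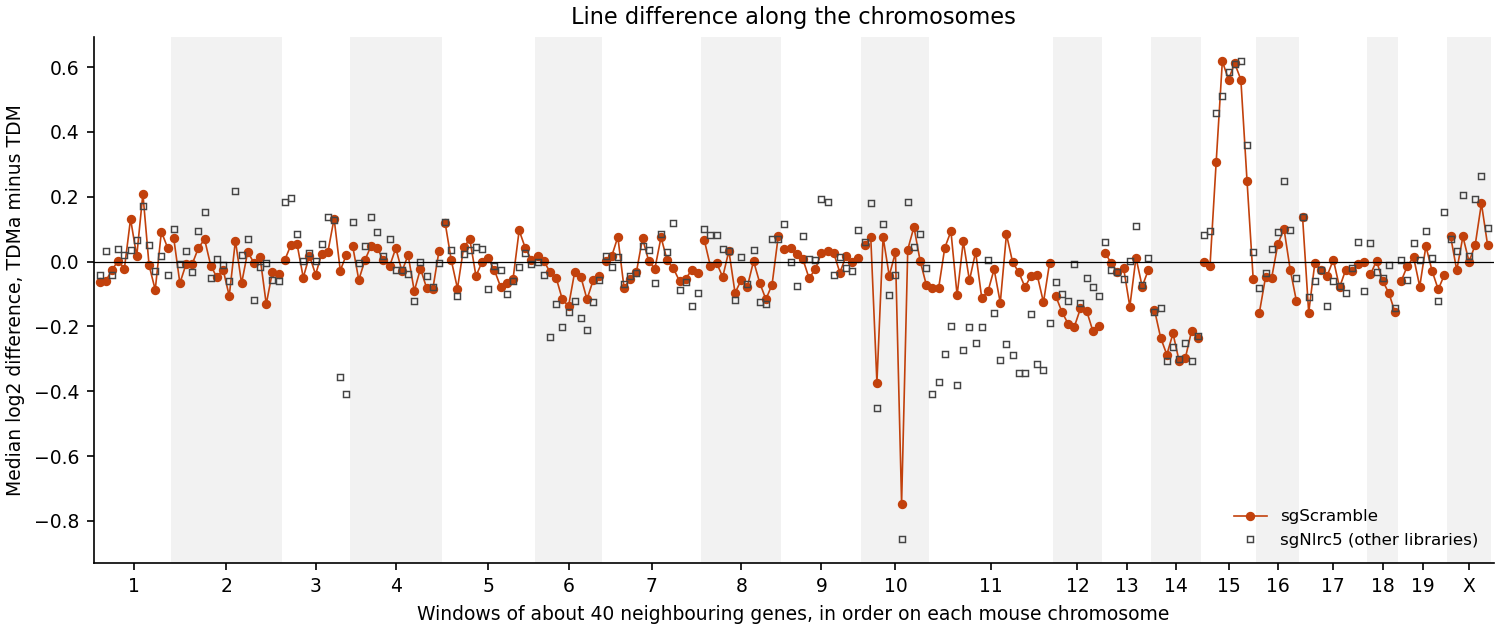
Median log2 difference between TDMa and TDM in 226 windows of about 40 neighbouring genes, in chromosome order on the horizontal axis; orange circles are sgScramble libraries and open squares the separate libraries with the Nlrc5 guide. The windows of chromosome 15 reach 0.62, those of chromosome 14 lie near -0.24, and 1 window of chromosome 10 lies at -0.75.

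Genes listed in only 1 line's table could not be compared. There were 669 in the TDM table and 810 in the TDMa table, of which 74 and 129 had a mean of at least 50 in their sgScramble libraries. Every listed gene of either table had at least 20 reads summed over its 4 libraries, so a gene missing from a table may have been at or near 0 there, and this was not tested. Of the 129 in the TDMa table, 116 were also listed for the TDMa tumours, at a median of 78.2 in the sgScramble tumours, and of the 74 listed only for TDM, 43 were, at a median of 15.8. The most abundant of them, named after their values were seen, were Magea13 (3044 and 3099), of a family of germline antigens, and Pnma5 (1775 and 1800.0) in TDM, and the reductase Dhrs2 (2687 and 2699) and the actin-binding Tmsb4x (2128 and 2085) in TDMa, each on its own table's scale. The DNA sensor Aim2 was listed in the TDM table only, at 639 and 663, and the collagen IV chain Col4a5 in the TDMa table only, at 1023 and 1001.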

How the data were processed

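The deposited tables hold log2 values of normalised counts plus 1, per the labels. Per the submitters' processing notes, FastQC 0.12.0, STAR 2.7.10a and DESeq2 1.36.0 were used with the build GRCm39 (mm39). The annotation and the counting of reads are not given in the sources used here. Values were back-transformed (2 to the power of the value, minus 1), the TDM and TDMa culture tables were joined on the gene identifier, and the 4 sgScramble columns were rescaled by the median of ratios over 12453 genes without a 0 (factors 1.04, 1.03, 0.967 and 0.969). The values were whole multiples of 1 read for 100% of those examined, within 0.1 of a read and up to 2000 reads, which gave the read totals; no column of the tables belonged to no sample (0). limma 3.58.1 with an intensity trend in R 4.3.3 tested log2(normalised count + 1) for genes with a mean of at least 10. The sgNlrc5 libraries were tested on the same genes after rescaling all 8 columns, and an interaction term tested the difference between guides. The tests were also run on simulated counts in which a small share of genes differed and all genes had the same dispersion. In the data 51.2% of the genes were called, so that check does not bear on the scaling or error rate here.

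The members and gene lists were chosen with earlier results of these data known. Named were Nlrc5, all tested heavy chains and B2m, the 15 largest called rises and falls without overlap of the lines and with a mean of at least 50 in 1 line, leaving out predicted genes, and at most 5 tested members from every other list, by smallest p. A further 31 genes were named after their values were seen: Tyr, Mitf, Sox10, Mlana, Slc24a4, Mmp2, Col6a1, Col1a1, Lamb1, Itga1, Ncam1, Adm, Bnip3, Vegfa, Slc2a1, Ndrg1, Trim30a, Ifit3, Isg15, Irf1, Psmb9, Tap1, Slc7a11, Nfe2l2, Cxcl10, Mki67, Tet1, Tet2, Trp53, Atf4 and Apobec1. Some results are not reported here because their items are withheld. RefSeq symbols matched 11482 of the 11855 tested genes.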

Additional observations from a re-analysis of the deposited data

Results flagged for a closer look

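The difference between TDMa and TDM depended on the guide for 2584 of 11855 genes (limma interaction term over the 8 culture libraries, adjusted p below 0.05). Of the genes named in the text, 15 were called in opposite directions with the guides and had a called interaction. The interaction, given as the sgNlrc5 difference minus the sgScramble difference on the log2 scale, was positive for H2-D1 (4.48, SE 0.11), H2-M3 (3.32, SE 0.66), Bnip3 (2.06) and Vegfa (1.26). It was negative for the interferon-stimulated genes Trim30a (-5.27), Gbp3 (-4.11), Gbp2 (-2.56), Cxcl10 (-2.54), Ifit3 (-2.20) and Lgals9 (-0.69). It was also negative for Scd1 (-1.42), Csf1 (-0.73), Dusp6 (-0.69), mt-Cytb (-0.41) and mt-Nd4 (-0.22). For Lgals9 the sgScramble call was lost on the deposited scale, without an intensity trend and without TDMa replicate 1 (adjusted p up to 0.383), and for mt-Nd4 in these settings and without TDM replicate 1. For mt-Cytb it was lost with quantile normalisation, and for H2-M3 without an intensity trend and without TDMa replicate 2. Leaving out 1 of its libraries ended the second set's call for Gbp2, Gbp3, mt-Cytb and mt-Nd4. The guide and any separate history of the transduced cultures cannot be told apart.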

How the results depend on the processing

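With 2 libraries per line, 14 alternatives were run. The 6069 calls became 4060 without an intensity trend and 5663 to 6575 under the other settings that kept all 4 libraries; leaving out 1 library gave 4871 to 5420. The count of called genes beyond 2-fold (1188) ranged from 802 with a mean of at least 50 to 1219 with limma-voom on recovered reads, and from 1103 to 1205 without 1 library. Deviations of libraries with the same replicate number were not correlated between the lines (-0.0085). That shows no shared replicate effect on expression, but cannot show whether cultures were paired. A replicate block gave 6164 calls. Alternatives for the other set were chosen after seeing the data: its 6268 calls ranged from 5061 to 5876 without 1 library and were 6445 with a replicate block, 6604 on the deposited scale and 4409 without an intensity trend. The interaction count of 2584 fell to 1157 without an intensity trend and was 1870 to 2768 without 1 library; the cause was not tested. Over 208 genes, 2843 of 2900 values kept their direction and side of the threshold, and 18 of 196 called genes lost the call under some alternative. Signs turned only in 7 genes that were not called. On the deposited scale these were H2-T22 (-0.0615), Rfxank (-0.0271), Trp53 (-0.0086), Irf1 (-0.043) and Psmb9 (-0.0633), and with quantile normalisation Rfxank (-0.0597) and Psmb9 (-0.2553). Without 1 library the difference ranged from -0.0618 to 0.1378 for H2-T22, -0.1679 to 0.0024 for Rfx5, -0.0377 to 0.0178 for Atf4 and -0.2485 to 0.3156 for Psmb9. Low read counts limit the size of a fold in genes such as Tex101 in TDMa.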
